A study of Mus musculus with 2 samples.

Results

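The metabotropic glutamate receptor genes Grm2, Grm3, Grm4, Grm5, Grm6, Grm7 and Grm8 were described in polyadenylated RNA from mouse hippocampus. They were taken by gene symbol, a rule that uses no measured value, although the set was proposed with earlier results of these data known. They make up 7 of the 55536 annotated genes and 36 of the 141862 transcripts in the tables. The series holds 1 group of 2 libraries, biological replicates 1 and 2, with no treatment, no modified allele and no second condition. The tissue was labelled layer of hippocampus and came from adult C57BL/6 mice of strain B6NCrl aged 6 months, described as male, although the sex field reads not collected. Each library was made from 20 ng of RNA. The tissue samples are separate but share 1 donor identifier, and the labels do not say that they came from separate animals, so the spread between the libraries may be partly technical. No test between conditions was possible, and values are given as levels with the SD of 2 libraries.

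Metabotropic glutamate receptors are G protein-coupled receptors that sense synaptic glutamate through a large extracellular domain and signal as dimers. Group I, here Grm5, couples to Gq and phospholipase C and lies mostly around the postsynaptic density. Group II (Grm2 and Grm3) and group III (Grm4, Grm6, Grm7 and Grm8) couple to Gi and Go, and most of them lower cyclic AMP and restrain glutamate release. In the hippocampus mGlu5 takes part in long-term depression and Grm3 is also made by astrocytes, while mGlu6 is known as the receptor of ON bipolar cells in the retina.

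5 of the 7 genes have transcripts in the annotation (GENCODE M21, mm10) that differ by a coding segment, and the transcript results below turn on which of these forms received the reads. The segments are shown 5′ to 3′ on the strand of the gene, with the segment in capitals and 15 bases of the neighbouring exonic sequence on each side in lower case. The Grm5 exon, chr7:88116193-88116288 on the plus strand, has 96 bases or 32 codons and separates mGlu5b from the shorter mGlu5a. The Grm7 exon, chr6:111501510-111501601 on the plus strand, has 92 bases and changes the end of the protein from mGlu7a to mGlu7b. The Grm8 segment, chr6:27285680-27285734 on the minus strand, has 55 bases, of which 47 are coding. It replaces the last 47 coding bases of the shorter splice form, so both forms encode 908 amino acids. The Grm4 exon, chr17:27450125-27450265 on the minus strand, has 141 bases or 47 codons of the extracellular part.
Grm5 exon: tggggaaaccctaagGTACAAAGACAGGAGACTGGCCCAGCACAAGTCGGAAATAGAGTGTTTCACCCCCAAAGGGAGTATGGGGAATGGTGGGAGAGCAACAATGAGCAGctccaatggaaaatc
Grm7 exon: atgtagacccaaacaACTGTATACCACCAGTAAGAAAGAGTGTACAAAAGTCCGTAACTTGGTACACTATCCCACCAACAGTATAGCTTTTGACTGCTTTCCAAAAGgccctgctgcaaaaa
Grm8 segment: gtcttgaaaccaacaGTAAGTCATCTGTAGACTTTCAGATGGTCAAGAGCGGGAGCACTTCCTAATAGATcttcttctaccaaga
Grm4 exon: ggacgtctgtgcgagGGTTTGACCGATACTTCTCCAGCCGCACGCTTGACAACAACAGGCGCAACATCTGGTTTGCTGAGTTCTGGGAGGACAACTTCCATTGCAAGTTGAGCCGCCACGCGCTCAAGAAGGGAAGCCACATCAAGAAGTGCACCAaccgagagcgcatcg

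In Grm2 the segment lies inside a single coding exon of 1076 bases. The transcript Grm2-203 lacks 834 bases of it, chr9:106647271-106648104 on the minus strand, which is 278 codons and leaves the reading frame intact. Only the ends of this segment are shown, again in capitals. It begins with GT and ends with AG, the letters that usually bound an intron.
Grm2 segment start: tatcgctaccagaagGTAGGCTACTGGGCA
Grm2 segment end: CTCTATGCCTTCAAGacccgcaagtgcccg

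The gene tables held 38921662 expected reads in replicate 1 and 39499350 in replicate 2. All 11 marker genes of hippocampal subfields were at 1 TPM (a level scaled for transcript length and library depth) or more in both libraries. Together they summed to 1025 TPM and 1033 TPM in replicates 1 and 2. The level of 1 TPM was also reached in both by all 7 markers of astrocytes, 6 of oligodendrocytes and their precursors, 8 of interneurons, 5 of microglia and 6 of thalamus. It was reached by 4 of 5 endothelial markers, by 5 of 6 each of the meningeal, neocortical and striatal markers, by 6 of 8 of choroid plexus and by 0 of 4 of retinal bipolar cells. The libraries differed in some markers of tissue that borders the hippocampus. All 8 choroid plexus markers were more than 2-fold higher in replicate 1, with a summed level of 15288 against 134 TPM, led by Ttr at 14956 and 117 TPM. Of the 6 meningeal markers, Ptgds and Slc6a13 were more than 2-fold higher in replicate 2, and Igf2 in replicate 1. Of 5 neocortical markers tested, only Rorb was past 2-fold, higher in replicate 1 at 21.1 against 7.30 TPM. The others differed by less, with Fezf2 and Lamp5 higher in replicate 2 and Rprm and Cux2 in replicate 1. In bulk tissue, fewer cells of a type and less RNA per cell cannot be told apart.

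Grm5 was the highest of the 7 genes, followed by Grm3, Grm2 and Grm7, while Grm4 and Grm8 stood at a few TPM and Grm6 had no reads. 6 of the 7 genes reached 1 TPM in both libraries, against 24.8% of all annotated genes. The 7 genes summed to 142 TPM in replicate 1 and to 160 TPM in replicate 2. Grm5 made up 52.5% ± 0.101 (SD, n = 2) of this sum, Grm3 20.4% ± 2.28 and Grm2 16.5% ± 2.80. Grm7 held 7.36% ± 0.534 of it, Grm4 1.88% and Grm8 1.41%.

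**Figure D1:**
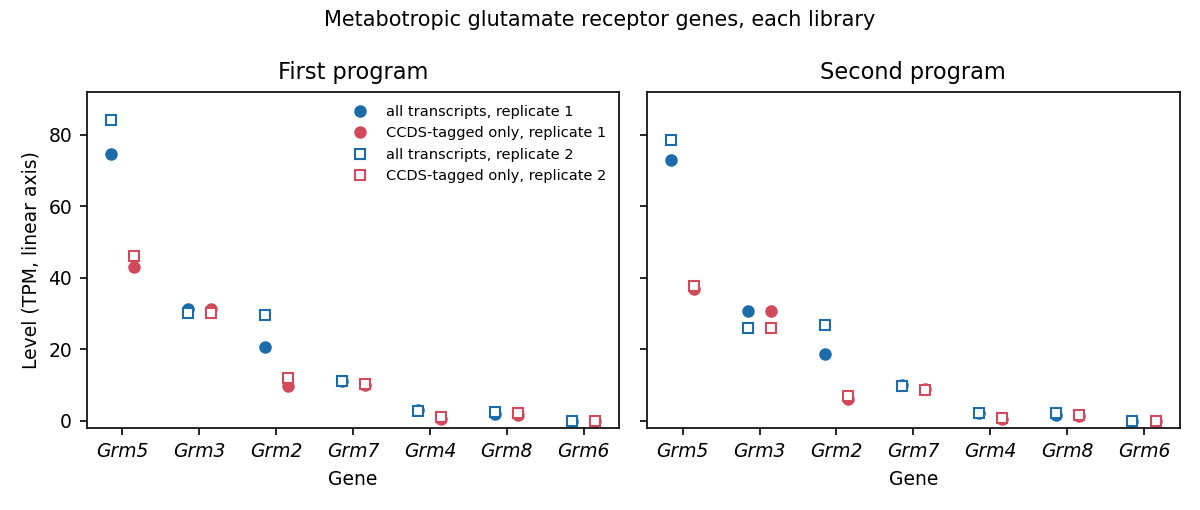
Level of each gene in TPM on a linear axis, with the first program at the left and the second at the right. Filled circles are replicate 1 and open squares replicate 2, in blue for all transcripts and in red for transcripts with a consensus coding sequence (CCDS) tag only. Grm5 is highest in every case, and Grm2 falls from near Grm3 to near Grm7 when only CCDS-tagged transcripts are summed.

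Grm5 (ENSMUSG00000049583.15, chr7:87584168-88134907, plus strand), the Gq-coupled receptor, was at 74.55 TPM in replicate 1 and 84.2 TPM in replicate 2, or 79.4 ± 6.82 (SD, n = 2). These levels rested on 8508 and 8718 expected reads, and the gene ranked 1843 of 55536 by mean TPM. Its lower library was above both libraries of every other member, and its mean was 2.59 times that of Grm3.

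Among the group II genes, Grm3 (ENSMUSG00000003974.6, chr5:9485541-9725170, minus strand) was at 31.2 and 30.0 TPM in replicates 1 and 2, or 30.6 ± 0.856 (SD, n = 2). Grm2 (ENSMUSG00000023192.12, chr9:106643095-106656082, minus strand), a presynaptic autoreceptor, was at 20.6 TPM in replicate 1 and 29.5 TPM in replicate 2, or 25.1 ± 6.31. Grm3 was above Grm2 by little in replicate 2, and the 2 genes did not overlap between libraries in the first program. In the second program they did overlap, with Grm3 at 30.6 and 26.1 TPM and Grm2 at 18.8 and 26.7 TPM, so their order does not hold beyond the spread.

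Of the group III genes, Grm7 (ENSMUSG00000056755.13, chr6:110645581-111567230, plus strand), which encodes a receptor of low glutamate affinity in the presynaptic active zone, was the highest. It was at 11.0 TPM in replicate 1 and 11.2 TPM in replicate 2, or 11.1 ± 0.127 (SD, n = 2), from 1201 and 1273 expected reads. Its mean was 3.92 times that of Grm4, and the libraries of the 2 genes were far apart. An antisense gene within Grm7, Gm20387, held 40.2 and 46.2 reads. Whether counting used the strand is not given in the sources used here, and every other gene that overlaps a member held at most 5 reads.

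Grm4 (ENSMUSG00000063239.17, chr17:27422387-27521403, minus strand) was at 2.92 and 2.74 TPM, or 2.83 ± 0.127 (SD, n = 2), from 300 and 298 reads. Grm8 (ENSMUSG00000024211.15, chr6:27275119-28135178, minus strand) was at 1.84 and 2.43 TPM, or 2.14 ± 0.417, from 194 and 225 reads. Both encode presynaptic receptors of higher glutamate affinity than mGlu7. Grm4 was above Grm8 in each library of the first program, but the libraries of the 2 genes overlapped in the second program, with Grm4 at 2.27 and 2.17 TPM and Grm8 at 1.67 and 2.28 TPM.

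Grm6 (ENSMUSG00000000617.14, chr11:50850685-50866208, plus strand) had 0 reads in both libraries, and each of its 4 transcripts was at 0 in both programs. A count of 0, taken as up to 3 reads, allows a level of up to 0.0308 TPM in replicate 1 and 0.0301 TPM in replicate 2, or 0.0771 and 0.0760 CPM (reads scaled for depth only). This limit covers counting error only and uses the effective length deposited for the gene. The deposited TPM intervals of Grm6 reach higher, to 0.105 and 0.119 TPM. The partners that mGlu6 works with in ON bipolar cells were low as well. Of 7 such genes, Rgs11, which speeds the G protein cycle, was the single one at 1 TPM or more in both libraries, at 1.5 and 1.75 TPM. The cation channel gene Trpm1 was at 0.02 and 0.07 TPM, Nyx at 0.04 and 0.06 TPM, Gpr179 at 0.07 and 0.15 TPM and Lrit3 at 0.01 and 0.00 TPM. Pcp2 was at 0.29 TPM in both.

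How much of each level came from full-length coding transcripts differed between the genes. A CCDS tag marks transcripts whose coding sequence has been agreed between annotation groups. CCDS-tagged transcripts made up all of Grm3, which has 1 transcript of 879 amino acids, 91.9% ± 1.37 (SD, n = 2) of the TPM of Grm7 and 88.7% ± 6.78 of Grm8. They made up 56.1% ± 2.00 of Grm5, 44.2% ± 5.04 of Grm2 and 27.5% ± 19.0 of Grm4. In the second program the share of Grm2 was lower, at 29.0% ± 5.12. Summed over CCDS-tagged transcripts alone, Grm5 was at 42.9 and 46.0 TPM and Grm3 remained at 31.2 and 30.0 TPM, with Grm5 the higher in each library. Grm2 was at 9.83 and 11.99 TPM and Grm7 at 9.99 and 10.4 TPM, so that these 2 genes overlapped. In the second program Grm7, at 8.76 and 8.55 TPM, was above Grm2, at 6.12 and 6.77 TPM, with no overlap. Over CCDS-tagged transcripts in the first program, Grm8 was at 1.72 and 2.03 TPM, above Grm4 at 0.41 and 1.12 TPM. This is the reverse of their order over all transcripts in that program. The second program also had Grm8, at 1.44 and 1.62 TPM, above Grm4, at 0.562 and 0.712 TPM.

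**Figure D2:**
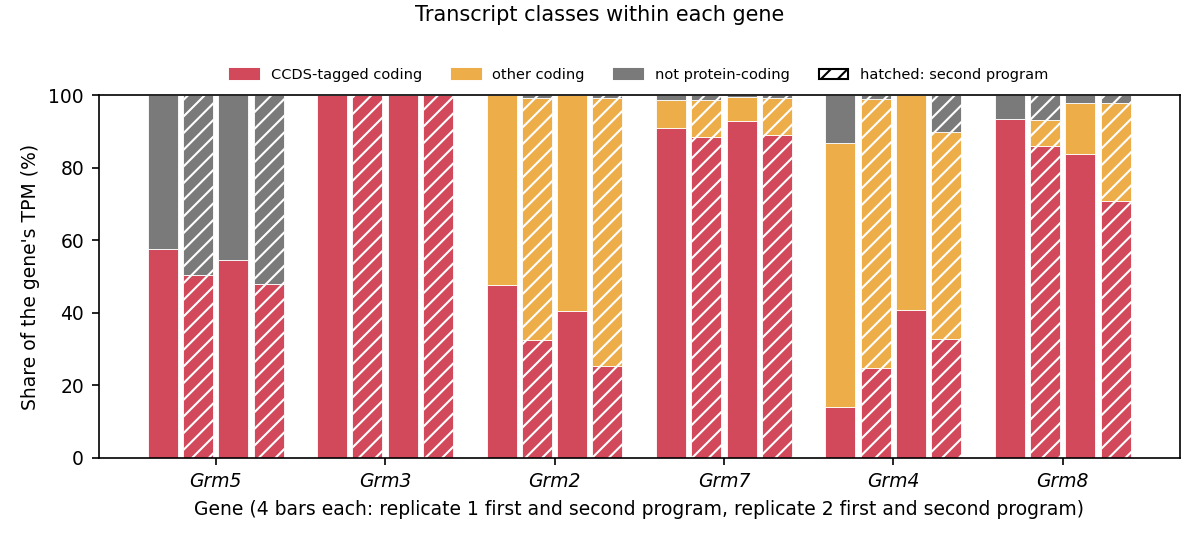
Share of each gene's TPM (percent, from 0 to 100) in CCDS-tagged coding transcripts (red), other coding transcripts (orange) and transcripts without a full protein-coding label (grey). Each gene has 4 bars: replicate 1 in the first and second program, then replicate 2 in the first and second program, with the second program hatched. Grm6 had no reads and has no bars. Grm3 is wholly red, Grm5 is split between red and grey, and Grm2 and Grm4 are mostly orange.

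The transcript with the highest TPM share of Grm5 was Grm5-205, a processed transcript of 551 bases with no coding sequence. It was at 26.9 TPM in replicate 1 and 32.65 TPM in replicate 2, or 37.4% ± 1.94 (SD, n = 2) of the gene's TPM. Because it is short, it held only 327 and 416 reads, or 4.31% of the gene's expected counts. Of its 551 bases, 347 lie in exons of CCDS-tagged transcripts, all of them noncoding there, and an exon of 204 bases lies in none. The second program gave it 42.6% of the TPM of Grm5. The longest transcript, Grm5-202 with 8047 bases, was at 21.9 and 20.3 TPM and held 59.5% of the gene's reads, so the leading transcript depends on whether molecules or reads are counted.

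**Figure D3:**
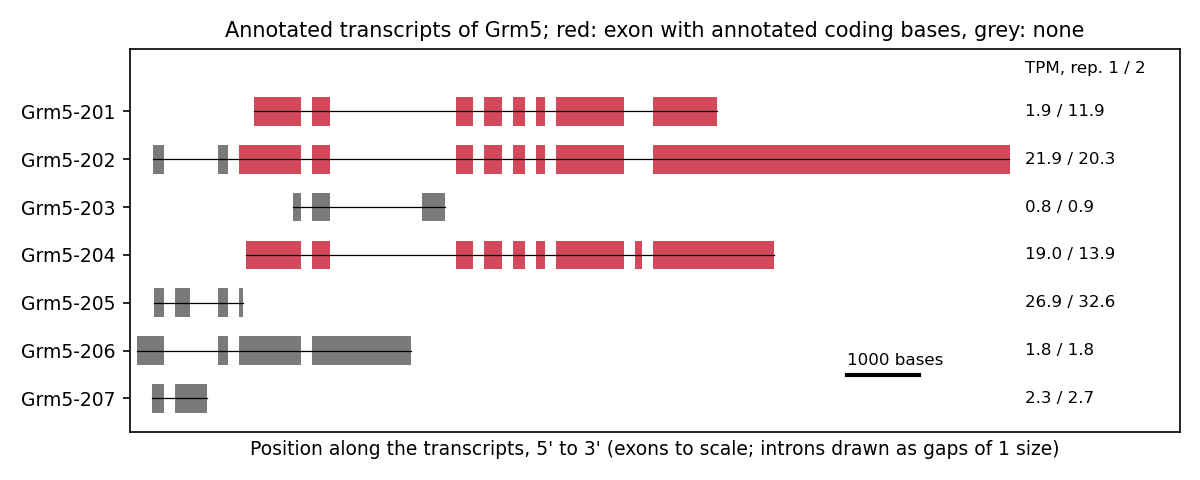
The 7 annotated transcripts of Grm5 drawn 5′ to 3′ with exons to scale and introns as gaps of 1 size. Exons with annotated coding bases are red and others grey, and the TPM in replicates 1 and 2 (first program) stands at the right. Grm5-204 alone holds the small coding exon before the last exon, and Grm5-205 covers only exons at the start of the gene.

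Among the coding forms of Grm5, the form with the 96-base exon, Grm5-204 with 1203 amino acids, was at 19.0 TPM in replicate 1 and 13.9 TPM in replicate 2. The form without it, with 1171 amino acids, comes from Grm5-201 and Grm5-202 and was at 23.9 and 32.1 TPM. The exon was thus present in 44.4% of the CCDS-tagged TPM in replicate 1 and 30.2% in replicate 2, or 37.3% ± 10.01 (SD, n = 2). The second program gave 50.3% and 35.1%. In both programs replicate 1 was higher, and the form without the exon was the larger in replicate 2. By expected counts the form with the exon held 31.5% and 23.2%. All bases of Grm5-201 are shared with other CCDS-tagged transcripts, and it was at 1.92 and 11.88 TPM. The last exon also differs in length, with 889 bases in Grm5-201, 4927 in Grm5-202 and 1674 in Grm5-204. The part of Grm5-201 and of these lengths in the shares was not tested.

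Grm7 was mainly mGlu7a. The transcript Grm7-202 with 915 amino acids was at 8.31 and 8.97 TPM, and Grm7-201, which holds the 92-base exon and encodes 922 amino acids, at 1.68 and 1.41 TPM. Of the CCDS-tagged TPM, mGlu7b thus made up 16.8% in replicate 1 and 13.6% in replicate 2, or 15.2% ± 2.29 (SD, n = 2). The second program gave 25.2% ± 1.73. The shares of the 2 programs did not overlap, and the form without the exon was the larger in both libraries and both programs. Of the other 3 transcripts, Grm7-203, with an incomplete coding sequence, held 7.27% of the gene's TPM. Because it is short, this rests on 7.07 and 6.38 expected reads, or 0.545% of the gene's counts.

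Grm8 was mainly the form with the 55-base segment. It is held by Grm8-202, at 0.91 and 0.62 TPM, and by Grm8-203, at 0.55 and 1.08 TPM, and is absent from Grm8-201, at 0.26 and 0.33 TPM. Grm8-202 led in replicate 1 and Grm8-203 in replicate 2, whereas in the second program Grm8-202 led in both. The segment was in 84.9% of the TPM of these 3 transcripts in replicate 1 and 83.7% in replicate 2, or 84.3% ± 0.806 (SD, n = 2). The second program gave 87.8% ± 3.52. These shares rest on 177 and 205 reads, of which Grm8-201 held 20.85 and 27.6. All bases of Grm8-201 and of Grm8-203 are shared with other CCDS-tagged transcripts of the gene. Of the other 4 transcripts, Grm8-204, with an incomplete coding sequence, was at 0.00 and 0.34 TPM and held 7.02% of the gene's TPM. In the second program it was at 0.121 and 0.618 TPM, or 17.2% of the gene, and stood above Grm8-203 in replicate 2.

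Grm4 had its reads spread over 5 transcripts. Grm4-206, with 657 amino acids, held 45.5% ± 10.2 (SD, n = 2) of the gene's TPM at 1.54 and 1.05 TPM, and Grm4-207, with 865 amino acids, 20.5% ± 0.422. Both lack the 141-base exon. Both full-length forms of 912 amino acids hold it: Grm4-201 was at 0.41 and 0.56 TPM and Grm4-205 at 0.00 and 0.56 TPM. Grm4-208, labelled as a target of nonsense-mediated decay, was at 0.38 and 0.00 TPM, and at 0.0238 and 0.219 TPM in the second program, where the higher library was the other one. Transcripts with the exon made up 27.1% of the TPM in replicate 1 and 40.9% in replicate 2, or 34.0% ± 9.77, and 34.3% ± 12.1 in the second program. Transcripts without the exon were thus assigned the larger part in both libraries and both programs. The other 3 transcripts were at 0 in the first program. All 3298 bases of Grm4-207 are shared with CCDS-tagged transcripts of the gene. Its deposited TPM intervals were wide, 7.59e-05 to 0.939 in replicate 1 and 0.0755 to 1.03 in replicate 2. How far its assignment bears on the share of the exon was not tested.

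The TPM of Grm2 was assigned in part to its full form and in part to the form without the 834-base segment. Grm2-201, with 872 amino acids, was at 9.83 and 11.99 TPM, and Grm2-203, with 594 amino acids, at 10.1 and 14.3 TPM. Grm2-203 held 48.9% ± 0.575 (SD, n = 2) of the gene's TPM, against 63.0% by the second program. By expected counts Grm2-201 led, with 64.6% of the reads, since it is 4711 bases long against 2111. Grm2-203 shares 2109 of its 2111 bases with Grm2-201. The last exon also differs, with 1975 bases in Grm2-201 and 207 in Grm2-203. How far the split reflects the segment itself was not tested. Grm2-202, whose coding sequence is incomplete, was at 0.61 and 3.22 TPM, and the 1 other transcript was at 0 in the first program.

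**Figure D4:**
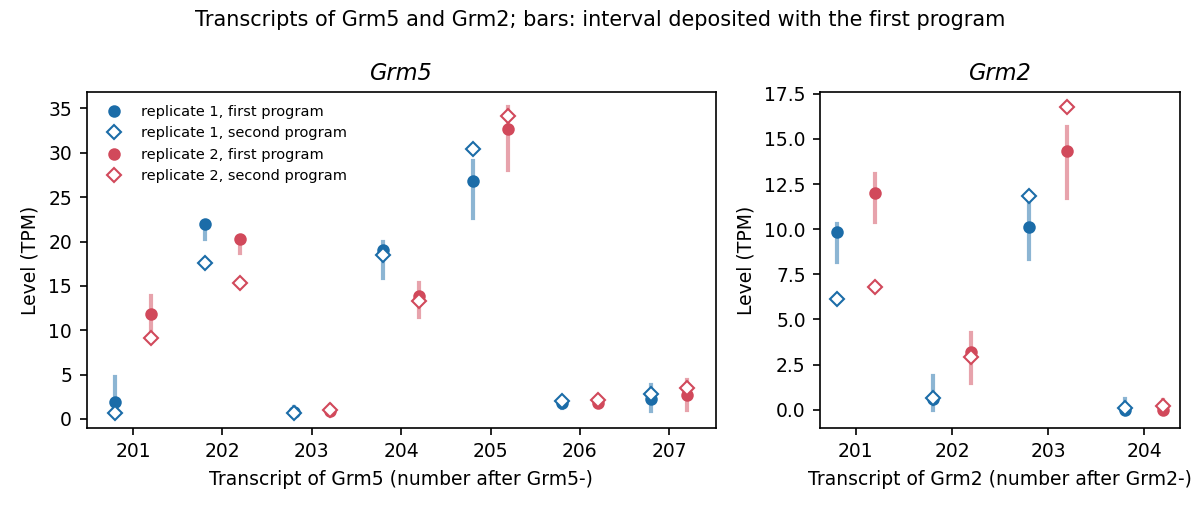
Level in TPM of the 7 transcripts of Grm5 (left) and the 4 of Grm2 (right), in blue for replicate 1 and red for replicate 2. Circles are the first program with its deposited interval as a bar, and open diamonds the second program. Grm5-201 and Grm2-202 have the largest fold differences between the libraries, although other transcripts differ by more TPM than Grm2-202. Grm2-203 lies above Grm2-201 in the second program.

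None of the 6 members with reads differed by 2-fold or more between the libraries. The background was 2.41% of the 14080 genes tested at a mean count of at least 50, and 2.71% of the 15176 genes of the second program. Grm2 had the largest ratio, with 2010 reads in replicate 1 and 2780 in replicate 2. It was 1.38-fold higher in replicate 2 after scaling, a log2 ratio of replicate 1 over replicate 2 of -0.46 (95% interval -0.54 to -0.38, exact, counting error only). A ratio at least as large was found in 12.3% of the tested genes. The choroid plexus, meningeal and Rorb differences moved between the same libraries, and their part in the Grm2 ratio was not tested.

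In the first program the intervals of the other 5 genes held 0. Grm5 had a log2 ratio of -0.03 (-0.07 to 0.02), Grm3 of 0.03, Grm4 of 0.02, Grm7 of -0.08 and Grm8 of -0.21 (-0.49 to 0.08). In the second program the intervals of 2 of these genes left out 0: Grm3 had a log2 ratio of 0.15 (0.09 to 0.21) and Grm8 of -0.27 (-0.50 to -0.03).

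At the transcript level, 2 of the 16 member transcripts tested were past 2-fold, against 8.90% of the 26374 transcripts tested in the first program. In the second program, 2 of 17 were past 2-fold, against 9.29% of 30968. They were Grm5-201 and Grm2-202 in both programs. At a minimum mean count of 10, 6 of 23 member transcripts were past 2-fold, against 18.3% of 41522. Grm5-201 held 197 reads in replicate 1 and 1244 in replicate 2, a log2 ratio of -2.63 (-2.85 to -2.41), and was at 1.92 and 11.9 TPM. All of its 3516 bases are shared with other CCDS-tagged transcripts of the gene, so it has no base of its own. The deposited intervals of its TPM, 0.318 to 4.68 and 9.17 to 13.8, do not overlap. Grm2-202 held 37.9 and 204 reads, a log2 ratio of -2.38 (-2.93 to -1.89), and its deposited TPM intervals overlap.

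**Figure D5:**
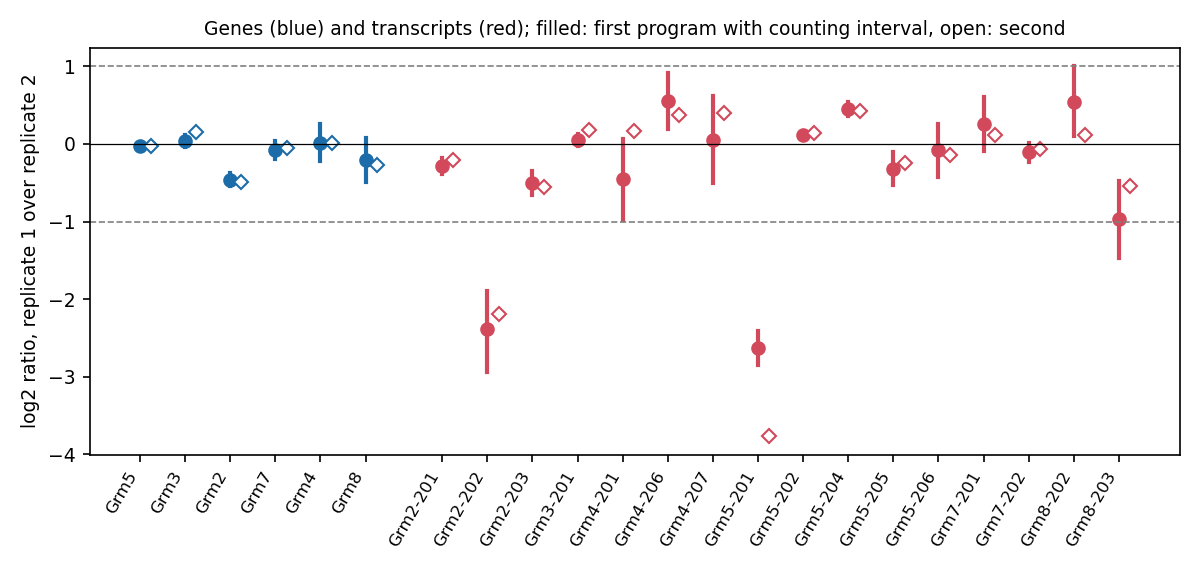
Log2 ratio of replicate 1 over replicate 2 for the 6 genes with reads (blue) and the 16 tested transcripts (red). Filled circles with bars are the first program with the exact 95% counting interval, open diamonds the second program, and dashed lines mark 2-fold. All genes lie between the dashed lines, and Grm5-201 and Grm2-202 lie below them.

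The genes through which these receptors act were nearly all present. None of the pathway genes tested was past 2-fold between the libraries, against 2.41% of the 14080 genes tested. At that share, few or none would be past it in lists of this size. All 16 genes of the Gq arm used by mGlu5 were at 1 TPM or more in both libraries, with a median of 23.4 TPM and a median log2 ratio of 0.03. For comparison, the median was 11.7 TPM over all genes that reached 1 TPM in both libraries. Among the highest were the protein kinase C gene Prkcb, at 118 and 114 TPM, and the diacylglycerol kinase gene Dgkb, at 64.4 and 62.3 TPM. The lowest was the channel gene Trpc1 at 2.77 and 2.99 TPM.

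Of 16 genes for anchors and partners of the receptors, 15 reached 1 TPM in both libraries. Among the highest, Ncdn, which encodes the mGlu5 partner neurochondrin, was at 426 and 484 TPM, and Cyth2, an ARF exchange factor, was at 108 TPM in both. Grip2 was the lowest at 0.59 and 0.63 TPM. Homer proteins tie mGlu5 to the postsynaptic density. Homer1 was the lowest of the Homer genes at 10.9 and 11.5 TPM, near the median of 10.8 TPM for the whole list. Homer2 was at 41.6 and 56.1 TPM and Homer3 at 16.3 and 17.4 TPM.

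For groups II and III, all 14 listed G protein subunit genes were at 1 TPM or more, with a median of 78.9 TPM. The list holds alpha, beta and gamma subunits, so this median is not that of the Gi and Go alpha subunits. The beta subunit gene Gnb1 led at 1109 and 667 TPM, followed by the gamma subunit genes Gng3, at 190 and 259 TPM, and Gng10, at 151 and 176 TPM. Gnb4 was lowest at 18.4 and 15 TPM. Of 12 effectors, 11 reached 1 TPM, with a median of 8.28 TPM. The inward rectifier genes Kcnj3, at 27.3 and 31.4 TPM, and Kcnj6, at 22.4 and 22.9 TPM, were highest, followed by the adenylyl cyclase gene Adcy1 at 17.4 and 17.3 TPM. A further channel gene of this kind, Kcnj5, was at 0.04 and 0.07 TPM.

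Among 12 genes of receptor desensitisation, 11 reached 1 TPM in both libraries, with a median of 8.94 TPM. The highest were Rgs14, a marker of CA2 neurons, at 67.0 and 65.6 TPM, the receptor kinase gene Grk2 at 42.8 and 43.8 TPM, and Rgs4 at 27.0 and 24.99 TPM. Grk5 was the exception, at 1.35 and 0.94 TPM. Of 12 genes of glutamate release, uptake and recycling, 11 reached 1 TPM, with a median of 16.8 TPM. The astrocyte transporter genes Slc1a3, at 239 and 199 TPM, and Slc1a2, at 167 and 151 TPM, and the glutamine synthetase gene Glul, at 140 and 162 TPM, were highest, and the vesicular transporter gene Slc17a8 was lowest at 0.24 and 0.13 TPM.

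N-acetylaspartylglutamate (NAAG) is a neuropeptide described as an agonist of mGlu3. Its synthases Rimklb, at 14.3 and 10.4 TPM, and Rimkla, at 6.32 and 5.73 TPM, were both present, as was Folh1, the peptidase that cleaves it, at 2.66 and 2.98 TPM. The other two of the 5 genes were below 1 TPM, with Naaladl1 lowest at 0.00 and 0.07 TPM. The median log2 ratio between the libraries was 0.12 for the 3 NAAG genes tested. It was -0.01 for the anchors, -0.07 for the G protein subunits listed for groups II and III and -0.12 for the effectors. For desensitisation it was -0.02 and for glutamate handling 0.02, against -0.01 over all genes.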

How the data were processed

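Per the file headers, the authors deposited gene tables with the expected count of reads, TPM and FPKM per gene, and transcript tables from 2 programs, the first with the expected count, TPM and a TPM interval of unstated level, the second with the estimated count and TPM. The text deposited beside the tables names mm10 and the M21 annotation. The names and versions of both programs were not given in the sources used here. Rows that name no annotated gene held 2.31e-05% and 1.64e-05% of reads and were left out.

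Counts were scaled by TMM (edgeR 4.0.16, R 4.3.3). Log2 ratios used a prior count of 0.5 over features with a mean count of at least 50, with exact Clopper-Pearson conditional binomial 95% intervals. These cover counting error only and leave out variation between libraries and, for transcripts, error in assigning reads. PCR copies were also not marked by molecular identifiers. No p-value was computed. The ratio step was tested on simulated data. Tables were handled in pandas 2.3.3 under Python 3.11.15, intervals came from scipy 1.17.1 and plots from matplotlib 3.10.9.

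The members and the 8 pathway and 12 marker lists were chosen with earlier results of these data known. Named are all members, transcripts with 5% or more of a gene's TPM, the 3 highest genes and the lowest of each pathway list, list genes past 2-fold and all ON bipolar partners. Some genes that this rule takes are not reported here. The Homer genes and some transcripts below 5% were named after their values were seen, as were the choice of CCDS-tagged transcripts and of the segments. In 1 list, 16 of 17 symbols matched.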

Additional observations from a re-analysis of the deposited data

How the results depend on the processing

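Of 163 values of the main results recomputed under another setting, 104 stayed within the spread of the libraries (or within 1.5 times, for counts) and 59 moved. Many of the 104 could not have moved, so their number is no measure of stability. A level or share from a library alone always lies within the spread, and Grm6 had no reads in any setting. Of the 7 genes, 6 passed in both libraries by FPKM, in the second program, at 0.5 TPM and without either library, and 5 at 2 TPM. No gene was past 2-fold under any scaling, minimum or program tried, and every gene kept the sign of its ratio, with Grm2 between -0.49 and -0.45. Genes past 2-fold rose from 339 to 912 at a minimum of 10. Member transcripts past 2-fold rose from 2 of 16 tested to 6 of 23 there, where 18.3% of all transcripts tested were past it: Grm8-206, Grm7-204, Grm4-205 and Grm4-208 joined Grm5-201 and Grm2-202. Of the lists, only that of ON bipolar partners moved, to 0 genes at 2 TPM.

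In FPKM, a different unit, mean levels were 62.3 for Grm5, 24.01 for Grm3, 8.69 for Grm7, 2.22 for Grm4 and 1.67 for Grm8. TPM without mitochondrially encoded genes was 88.7 for Grm5, 34.2 for Grm3, 12.4 for Grm7 and 3.16 for Grm4. The second program gave 28.4 TPM for Grm3, 9.75 for Grm7 and 2.22 for Grm4. Over CCDS-tagged transcripts, a choice made after seeing the data, Grm5 was at 44.5 TPM (37.3 in the second program), Grm2 at 10.9 (6.45), Grm7 at 10.2 (8.66) and Grm4 at 0.765 (0.637), while Grm3 was at 28.4 and Grm8 at 1.53 in the second program.

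As shares of the 7 genes, CCDS-tagged transcripts gave Grm5 44.99% (45.0% in the second program), Grm3 31.0% (34.2%), Grm2 11.0% (7.79%), Grm7 10.3% (10.4%), Grm8 1.89% (1.85%) and Grm4 0.765% (0.770%). By expected counts Grm5 held 55.7%, Grm3 17.7% and Grm7 7.99%. The second program gave Grm5 53.8% and Grm4 1.58%.

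The leading transcript moved to 42.6% of Grm5, 63.0% of Grm2, 34.8% of Grm4 and 66.5% of Grm7 in the second program. By expected counts it was Grm5-202 with 59.5%, Grm2-201 with 64.6% and Grm7-202 with 87.0%. Among complete protein-coding transcripts it was Grm5-202 with 47.6%, Grm2-203 with 52.6%, Grm7-202 with 84.8% and Grm8-203 with 42.6%. Leaving out a library gave 44.6% and 49.5% for Grm8, led by Grm8-203 without replicate 1. The form of Grm7 with its exon was 25.2% in the second program and 11.6% by counts. Transcripts with the segment were 87.8% of Grm8 in the second program and 87.4% by counts, and 31.4% and 67.7% of Grm2. The cause of these shifts was not tested.

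No paired analysis was possible because there is 1 group. Grm8 and Grm4 rest on 194 to 300 reads in a library, and Grm6 on 0.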
